A study of Capra hircus with 6 samples.

Results

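Reads of the let-7 family and miR-98 were examined in small RNA of goat back muscle, the longissimus dorsi of the Haimen breed. The family was taken as 9 miRNAs, namely let-7a, let-7b, let-7c, let-7d, let-7e, let-7f, let-7g, let-7i and miR-98. A listed name belonged to it when its miRNA, without species prefix, arm, copy number and variant suffix, was 1 of these 9, which held for 26 of 1120 distinct names. The samples were 3 libraries of newborn animals at 1 day of age, called lambs in the labels, and 3 libraries of fetuses at day 75 of pregnancy. The labels name no treatment or genotype. Nor do they state whether every library is from another animal, and the p-values therefore cover the spread between these libraries alone, which could be technical. The comparison asks which miRNAs differ in this muscle between the fetal and the newborn stage.

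Let-7 was first found in Caenorhabditis elegans as a regulator of developmental timing, and its mature forms accumulate in many animals as cells stop dividing and differentiate. A let-7 hairpin is cut by Drosha and Dicer, and either arm can be loaded into an Argonaute protein. The 5′ arm (5p) is usually the main product, and the 3′ arm (3p) the passenger. The RNA-binding protein LIN28, abundant in embryonic cells, blocks the maturation of let-7 hairpins. Targets are recognised mainly through the seed, bases 2 to 8 of the mature miRNA, and known let-7 targets include HMGA2, IGF2BP1 and the RAS genes, which promote growth.

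The 9 goat 5p sequences are shown because they share their whole seed and differ only downstream of it, apart from the first base of let-7d. Sequences are those of the deposited table, written 5′ to 3′ with the seed in capitals.
let-7a-5p: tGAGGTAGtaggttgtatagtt
let-7b-5p: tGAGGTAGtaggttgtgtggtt
let-7c-5p: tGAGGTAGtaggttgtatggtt
let-7d-5p: aGAGGTAGtaggttgcatagtt
let-7e-5p: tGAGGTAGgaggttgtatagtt
let-7f-5p: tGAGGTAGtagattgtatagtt
let-7g-5p: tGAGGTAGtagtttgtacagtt
let-7i-5p: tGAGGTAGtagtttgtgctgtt
miR-98-5p: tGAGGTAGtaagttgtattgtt

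With positions counted from 1 at the 5′ end and the base of let-7a first, let-7c differed from let-7a by A19G, let-7e by T9G and let-7f by G12A. Let-7b differed by A17G and A19G, let-7d by T1A and T16C, let-7g by G12T and T18C, and miR-98 by G11A and A19T. Let-7i was the most distant, with 4 changes (G12T, A17G, T18C and A19T). The seed GAGGTAG was carried by 15 listed names, 13 of them in the family. The values of the 9 goat 5p names were not all whole, as when a read is shared between names that it matches equally well. How reads were split between sequences this alike is therefore uncertain, whereas all 3p values were whole.

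The 3p sequences were less alike and fell into 7 seed groups. The seed TATACAA was shared by let-7a, let-7b, let-7f and miR-98, and TGTACAG by let-7g and let-7a-2. The other 5 names, let-7c, let-7d, let-7e, let-7f-2 and let-7i, each had a seed of their own. They are shown with position 22 in capitals, since this base carried the substitution that recurs in the family.
let-7a-3p (1ss22CT): ctatacaatctactgtctttcT
let-7f-3p (1ss22CT): ctatacaatctattgccttccT
let-7f-2-3p (1ss22CT): ctatacagtctactgtctttcT
let-7g-3p (1ss22CT): ctgtacaggccactgccttgcT
miR-98-3p (1ss22CT): ctatacaacttactactttccT
let-7b-3p: ctatacaacctactgccttccT
let-7d-3p (R+1): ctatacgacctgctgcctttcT
let-7i-3p: ctgcgcaagctactgccttgcT
let-7c-3p: ctgtacaaccttctagctttcC
let-7e-3p: ctatacggcctcctagctttcC
let-7a-2-3p: ctgtacagcctcctagctttcC

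A suffix such as 1ss22CT gives a substitution against the entry in miRBase, the public miRNA registry, here C22T with the registry base first. L and R with a signed number stand for added or missing bases at the 5′ end and at the 3′ end. The files do not define these suffixes, which are read here in their usual sense. The suffix 1ss22CT stood on 5 of the 11 3p names, in let-7a, let-7f, let-7f-2, let-7g and miR-98, and on none of the 15 5p names. In the whole list 8 names carried it as their only substitution, with or without a changed end. Of these, 5 (62.5%, exact 95% interval 24.5 to 91.5%) were let-7 names. The other 3 belonged to miR-331-3p and miR-339-5p, 0.324% of 926 other known names of any arm. Among the 11 3p names of the family the share was 45.5%. These percentages have unlike bases. The substitution was known to recur in the family's 3p names beforehand, so the counts and the interval are a description and test nothing. A T at position 22 was not confined to these 5 names. It was also the last base of let-7b-3p and let-7i-3p, which were classed as identical with the registry, and the base by which let-7d-3p was longer than its entry. In all, 8 of 11 let-7 3p names had T there, against 76 of 185 (41.1%) other 3p names of at least 22 bases. The 3 names with C there were let-7c-3p, let-7e-3p and let-7a-2-3p, which share the ending TAGCTTTCC.

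Of the 26 names, 11 differed from their registry entry (42.3%, exact 95% interval 23.4 to 63.1%), against 523 of 926 other known names (56.5%). All 9 goat 5p names and 4 of 9 goat 3p names were identical with it. Of the 926 other names 278 were identical, and the remainder were in neither class, whereas every let-7 name was classed. The shares of differing names thus have unlike bases. Leaving the unclassed names out would raise the share of the other names. Among the 11 differing names, 5 carried the substitution at position 22, 4 were longer at the 3′ end and 2 were longer at the 5′ end. A changed 3′ end was thus seen in 36.4% (10.9 to 69.2%) of differing let-7 names, against 74.4% (70.4 to 78.1%) of other differing names. This contrast rests on how names are classed, since the substituted base at position 22 is itself the last base and was not counted as a changed end. Without names that carry a substitution, the shares were 66.7% (22.3 to 95.7%) for let-7 and 85.2% (81.0 to 88.8%) for other names. Among goat-prefixed let-7 names, 1 of 5 differing names had a changed 3′ end. Intervals cover counting error only, and names of 1 hairpin are not independent.

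Lamb libraries held 6096009 to 9471852 miRNA reads and fetal libraries 8506742 to 13756954. Levels below are in CPM, reads of a name per 1000000 reads of the library after scaling by TMM (trimmed mean of M-values). No whole value of 1 read occurs in the table and few lie below 5, so a 0 may hide a few reads. The summed level of the striated muscle list, all 8 members of it listed and miR-208a and miR-208b near 0, was 255153 to 351445 CPM in lambs and 62327 to 73262 CPM in fetuses. Of its 11 tested names, 7 rose and 1, miR-499-5p, fell (edgeR, adjusted p under 0.05). Among all tested names 16.2% rose and 26.5% fell, the background for this and the next lists. MiR-499-5p had 237 to 349 CPM in lambs and 482 to 722 CPM in fetuses. MiR-133a-3p alone, a miRNA of differentiated muscle, took 173695 to 237309 CPM in lambs and 28969 to 36264 CPM in fetuses. Sums of the blood cell list, all 6 members listed, were 718.6 to 1199 CPM in lambs and 312 to 438 CPM in fetuses, with 2 of 8 tested names higher and 2 lower. The higher names were miR-150, at 512 to 989 CPM in lambs and 37.5 to 60.3 CPM in fetuses, and miR-223-3p. The lower names were miR-144-5p and miR-155-5p. Endothelial miR-126 summed to 3519 to 3784 CPM in lambs and 1692 to 2080 CPM in fetuses, with 2 of 3 tested names higher. The 4 stromal and smooth muscle miRNAs summed to 19594 to 32498 CPM in lambs and 37687 to 44085 CPM in fetuses. Of 10 tested names 3 were higher, those of miR-143-3p and both arms of miR-145. The 3 lower names were of miR-214-3p and miR-199a-5p, so the list was split. Neural sums were 6.71 to 10.9 CPM in lambs and 12.2 to 23.4 CPM in fetuses, with miR-124a at 0 in the lambs, and epithelial sums 12.7 to 15.1 CPM in lambs and 2.82 to 72.5 CPM in fetuses. The 7 tested names of these lists did not pass edgeR's threshold, though with library totals 1 neural name fell. The part of these shifts in the let-7 values was not tested, and in bulk tissue fewer cells of a type and less RNA per cell cannot be told apart.

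The summed reads of the family overlapped between the stages, but the share of its 3p names, mostly let-7d-3p, in all reads did not. All 26 names together made up 3.71%, 2.51% and 3.15% of reads in lamb replicates 1, 2 and 3, against 3.65%, 3.79% and 3.36% in fetus replicates 1, 2 and 3. The 15 5p names alone summed to 41254, 25039 and 34847 CPM in lambs, against 30164, 29784 and 26807 CPM in fetuses. The stages overlapped, and lamb replicate 2, the library with the fewest reads, was the lowest of all 6. The log2 ratio of the stage means was 0.22 with TMM, 0.39 with the authors' factors and -0.18 with library totals, so its direction depended on the scaling. The 11 3p names made up 0.204%, 0.189% and 0.199% of reads in lambs, against 0.244%, 0.305% and 0.328% in fetuses, lower in lambs without overlap. In TMM CPM they summed to 2403, 2035 and 2353 in lambs, against 2157, 2605 and 2901 in fetuses, and overlapped. Their log2 ratio was -0.57 with library totals and -0.17 with TMM.

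**Figure D1:**
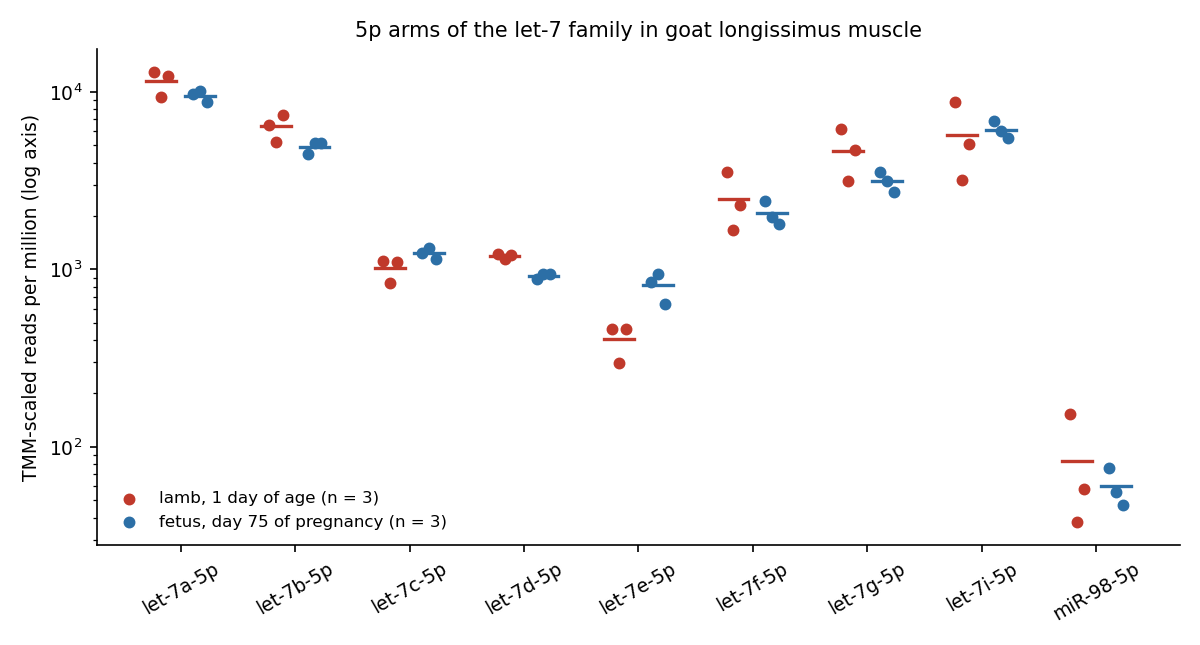
Levels of the 9 goat 5p names in TMM-scaled CPM on a log axis, with 1 point per library, lambs left of fetuses, and a line at each stage mean (n = 3 each). Let-7a-5p is the highest and miR-98-5p the lowest at both stages, and let-7e-5p is the name whose lamb points all lie far below the fetal points.

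Let-7a-5p was the most abundant member, with 12981, 9367 and 12315 CPM in lambs, against 9685, 10098 and 8812 CPM in fetuses. By mean level in lambs it was followed by let-7b, let-7i, let-7g, let-7f, let-7d, let-7c, let-7e and miR-98. In fetuses let-7i stood before let-7b, and let-7c before let-7d. In lambs the libraries of let-7b and let-7i overlapped, as did those of let-7i and let-7g and those of let-7g and let-7f. In fetuses only let-7d and let-7e overlapped among neighbours in the order. These levels compare sequences of equal length, but ligation can favour 1 sequence over another.

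Individual names were compared between stages with edgeR's quasi-likelihood test on all 714 names with a mean of at least 10 reads. In the family 24 of 26 names reached that mean. Of these, 7 passed an adjusted p of 0.05, 5 higher and 2 lower in lambs, which is 29.2% of the tested members against 42.7% of all tested names. Among all names 16.2% were called higher and 26.5% lower in lambs. The median log2 change of the members was 0.27 and that of all names -0.12. TMM CPM did not overlap between the stages for 13 of the 24 tested members, against 56.2% of all tested names. The untested names were miR-98-3p, with 9 reads in fetus replicate 3 and a listed 0 elsewhere, and platypus-named let-7e-5p, with 7 reads in lamb replicate 1, 11 reads in fetus replicate 1 and a listed 0 elsewhere.

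The choice of scaling moved all values together. The median log2 change over all names was -0.52 with library totals and 0.05 with the authors' factors. Library totals gave 6 called members, 25.0% of the 24 tested, against 45.0% of all names. Called higher in lambs were 1 of the 24 and lower 5 of the 24, against 9.38% and 35.6% of all names. The authors' factors gave 11 called members, 45.8% of the 24 tested, against 42.7% of all names. With these factors 9 of the 24 were higher and 2 of the 24 lower in lambs, against 19.5% and 23.2% of all names. Of the 24 members, 3 were called in the same direction under all 3 scalings: let-7e-5p, let-7e-3p and the 5′-extended form of let-7b. Shares within the family, which do not depend on the scaling of a library, are given further down.

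**Figure D2:**
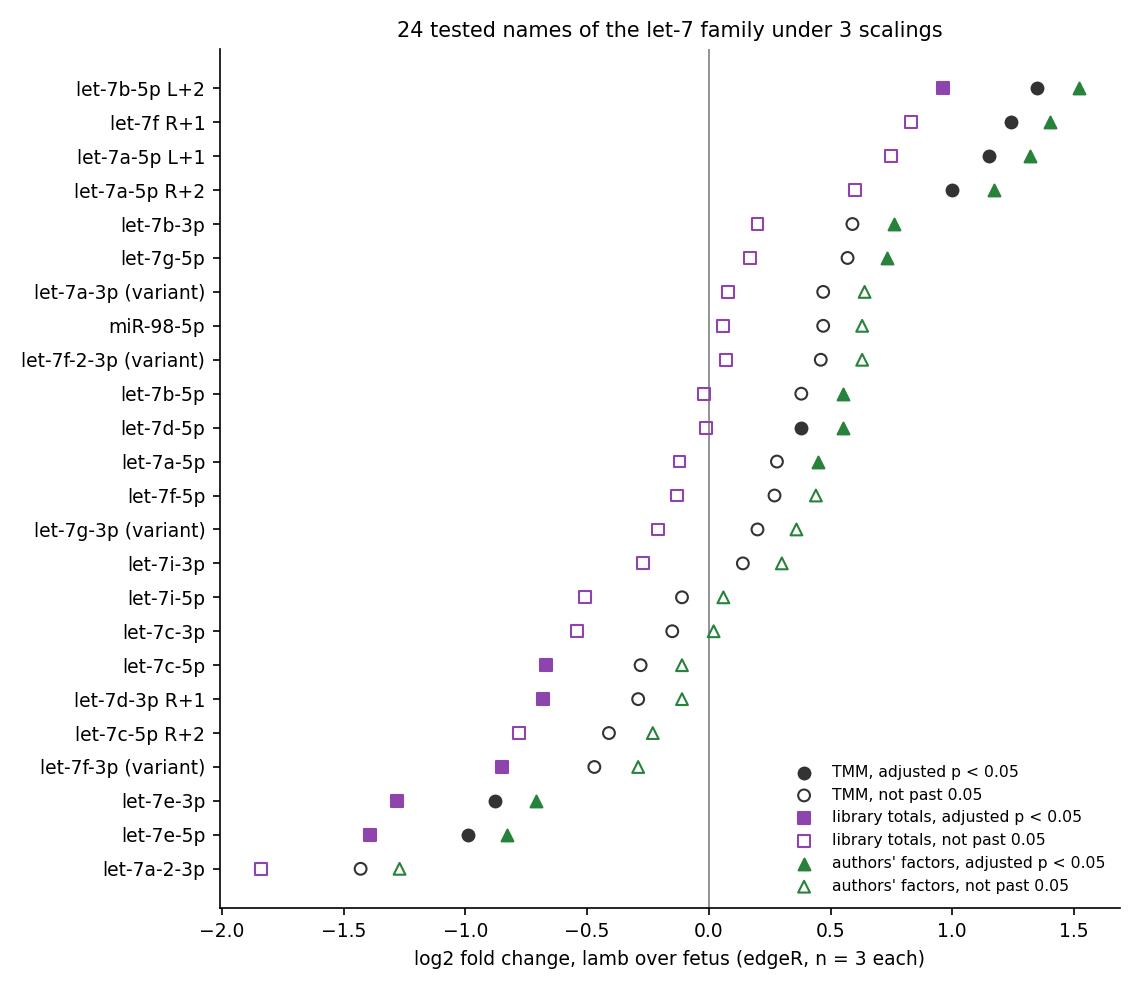
Log2 fold changes, lamb over fetus, of the 24 tested names under TMM (circles), library totals (squares) and the authors' factors (triangles), with filled symbols for an adjusted p under 0.05 (edgeR, n = 3 each). The 3 symbols of a name keep nearly the same distance throughout, and 4 of the 5 longer 5p forms stand at the upper end, with both let-7e arms and the R+2 form of let-7c toward the lower end.

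Both arms of let-7e fell in lambs. Let-7e-5p had 463, 298 and 462 CPM in lambs, against 853, 943 and 641 CPM in fetuses, and the groups did not overlap. Its log2 change was -0.99 ± 0.242 (SE, edgeR adjusted p = 0.0167). Let-7e-3p had 66.0, 56.0 and 83.3 CPM in lambs, against 110, 142 and 127 CPM in fetuses, again without overlap. Its log2 change was -0.88 ± 0.229 (SE, edgeR adjusted p = 0.0211). The log2 changes of let-7e-5p and let-7e-3p were -1.39 and -1.28 with library totals, and -0.83 and -0.71 with the authors' factors. Let-7e-5p was not called without fetus replicate 2 (-0.87, edgeR adjusted p = 0.0679). Let-7e-3p was not called without lamb replicate 1, fetus replicate 2 or fetus replicate 3 (edgeR adjusted p = 0.0656, 0.0907 and 0.0665).

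In RefSeq genes of the goat assembly ARS1.2, let-7e lies next to MIR99B, and let-7c lies between MIR125B and MIR99A. In mammals let-7e is clustered with miR-99b and miR-125a, let-7c with miR-99a and miR-125b, and let-7a-2 with miR-100. Of 13 tested names of miR-99a, miR-99b, miR-100, miR-125a and miR-125b, 1 rose and 4 fell in lambs (edgeR), with a median log2 change of -0.15. Among all tested names 16.2% rose and 26.5% fell, with a median of -0.12, so the list's median lay near that of all names. MiR-99b-5p, the neighbour of let-7e, had 6840, 6681 and 8418 CPM in lambs, against 12947, 16884 and 14860 CPM in fetuses. MiR-99b-5p thus changed by -1.03 ± 0.148 on the log2 scale (SE, edgeR adjusted p = 0.00237), beside -0.99 for let-7e-5p. MiR-99b-3p and miR-125a-3p also fell, by 1.77 and 0.96 on the log2 scale (edgeR adjusted p = 0.00353 and 0.0147). MiR-125a-5p, the more abundant arm, did not pass, with a log2 change of -0.29 (edgeR adjusted p = 0.188), and passed at -0.68 with library totals (adjusted p = 0.0229). Of the neighbours of let-7c, miR-99a-5p had a log2 change of 0.09 and miR-125b-5p of 0.26, neither of them called (edgeR adjusted p = 0.783 and 0.12). A cattle-named miR-125b sequence was the name of the list that rose, by 0.39 (edgeR adjusted p = 0.0433), and was not called with library totals (adjusted p = 0.993). A Chinese hamster-named miR-125b sequence, at 10.5 to 15.4 CPM in lambs and 26.5 to 27.2 CPM in fetuses, fell by 1.05 on the log2 scale (edgeR adjusted p = 0.0137). With library totals 6 of these 13 names fell and the others were not called, while 35.6% of all tested names fell and 9.38% rose.

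Let-7d-5p rose in lambs with TMM, by a small amount and with little spread. It had 1226, 1151 and 1204 CPM in lambs, against 880.5, 936 and 940 CPM in fetuses, and the groups did not overlap. The log2 change was 0.38 ± 0.120 (SE, edgeR adjusted p = 0.0424). In the authors' deposited table let-7d-5p has the lowest p of all 1119 names (4.0e-05), with a log2 ratio of -0.55 for fetus over lamb. With library totals its log2 change was -0.01 ± 0.112 (SE, edgeR adjusted p = 0.941), with overlapping groups. Set against the median of all names, the change was 0.50 with either scaling. This equality holds nearly by construction, since a scaling shifts all names together, and is no separate evidence of a rise. The call with TMM was lost without any 1 library other than lamb replicate 2 (log2 change 0.33 to 0.39, edgeR adjusted p from 0.0584 to 0.138).

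The main 5p names of the other members were not called. Let-7a-5p had a log2 change of 0.28 ± 0.148 (SE, edgeR adjusted p = 0.173), with overlapping groups. Let-7b-5p had 6547, 5246 and 7408 CPM in lambs, against 4474, 5171 and 5125 CPM in fetuses, without overlap. The log2 change of let-7b-5p was 0.38 ± 0.154 (SE, edgeR adjusted p = 0.0959). Let-7g-5p had 6146, 3141 and 4701 CPM in lambs, against 3556, 3160 and 2728 CPM in fetuses, and overlapped through lamb replicate 2 (log2 change 0.57 ± 0.251 SE, edgeR adjusted p = 0.117). Let-7f-5p had 3531, 1658 and 2314 CPM in lambs, against 2443, 1979 and 1791 CPM in fetuses (log2 change 0.27 ± 0.284 SE, edgeR adjusted p = 0.454). Lamb replicate 2 was the lowest library of all 6 for let-7f-5p and the highest lamb value lay above all fetuses. With the authors' factors let-7a-5p, let-7b-5p and let-7g-5p were called at 0.45, 0.55 and 0.73 (edgeR adjusted p = 0.0329, 0.0182 and 0.0465).

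Let-7c-5p was lower in every lamb library, with 1116, 836 and 1101 CPM in lambs, against 1232, 1325 and 1139 CPM in fetuses. Its log2 change of -0.28 ± 0.162 (SE, edgeR) did not pass with TMM (adjusted p = 0.204). With library totals let-7c-5p was called at -0.67 (edgeR adjusted p = 0.0082). Let-7i-5p had 8797, 3173 and 5093 CPM in lambs, against 6856, 6025 and 5505 CPM in fetuses, a log2 change of -0.11 ± 0.348 (SE, edgeR adjusted p = 0.813). MiR-98-5p, encoded on the X chromosome within the gene HUWE1 in mammals, had 153, 37.6 and 57.6 CPM in lambs, against 76.5, 55.8 and 47.3 CPM in fetuses. The highest lamb library lay above the fetal range and the lowest below it, with a log2 change of 0.47 ± 0.528 (SE, edgeR adjusted p = 0.490).

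The spread between lambs set the error of several members. In lambs the highest library exceeded the lowest by a factor of 4.07 for miR-98-5p, 2.77 for let-7i-5p and 2.13 for let-7f-5p, but by 1.07 for let-7d-5p. In fetuses these factors were 1.62, 1.25, 1.36 and 1.07. Lamb replicate 2 was the lowest of the 3 lambs for all 9 goat 5p names, and lamb replicate 1 the highest for 8 of the 9. The exception was let-7b-5p, which was highest in lamb replicate 3.

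As a share of the family's 5p reads, let-7e and let-7c lay lower in lambs and let-7g lay higher, without overlap. Let-7e took 1.12%, 1.19% and 1.33% of the family's 5p reads in lambs, against 2.83%, 3.17% and 2.39% in fetuses. The share of let-7c was 2.71%, 3.35% and 3.16% in lambs, against 4.09%, 4.46% and 4.26% in fetuses. Let-7g held 14.9%, 12.5% and 13.5% in lambs, against 11.8%, 10.6% and 10.2% in fetuses. Each of these 3 differences had a two-sided exact permutation p of 0.10, the smallest that 3 against 3 libraries allow (adjusted p = 0.30 over 9 members), so none can pass a threshold of 0.05. The 9 shares are parts of 1 sum, so a higher share of 1 member goes with lower shares of others. The shares were chosen after their values were seen, so these p-values are a description only. No like shares outside the family are given as a background.

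The other 6 shares overlapped. Let-7a averaged 34.9% ± 3.02 in lambs and 33.1% ± 0.894 in fetuses (SD, n = 3 each), and let-7b 19.4% ± 3.03 in lambs and 17.1% ± 2.16 in fetuses. Let-7i averaged 16.2% ± 4.54 in lambs and 21.2% ± 1.36 in fetuses (SD, n = 3 each), with lamb replicate 1 inside the fetal range at 21.3%. Let-7d, let-7f and miR-98 differed by less than the larger of their 2 SDs.

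**Figure D3:**
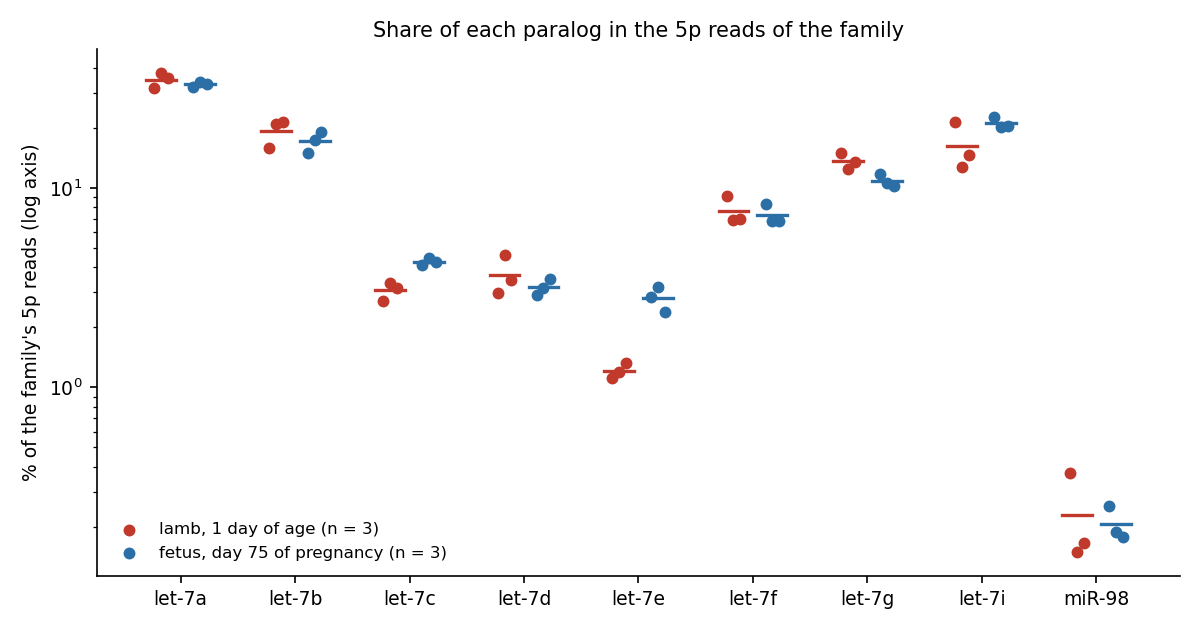
Share of each member in the 5p reads of the family, in percent on a log axis, with 1 point per library, lambs left of fetuses, and a line at each stage mean (n = 3 each). Let-7e averages 1.21% in lambs and 2.80% in fetuses, while let-7a averages 34.9% in lambs and 33.1% in fetuses.

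The 3p arm was a small part of most members, but not of let-7d. In let-7d the 3p arm held 59.6%, 57.1% and 58.3% of the reads of both arms in lambs, against 65.9%, 69.1% and 71.3% in fetuses. Its 3p name was thus more abundant than its 5p name in every library. The share averaged 58.3% ± 1.27 in lambs and 68.8% ± 2.72 in fetuses (SD, n = 3 each), a difference of -10.4 percentage points without overlap. The exact permutation test gave p = 0.10, the smallest possible (adjusted p = 0.90 over 9 members). The level of let-7d-3p itself was 1812, 1532 and 1681 CPM in lambs, against 1701, 2098 and 2333 CPM in fetuses. With TMM its log2 change of -0.29 was not called (edgeR adjusted p = 0.181), and with library totals it was called at -0.68 (adjusted p = 0.0093).

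In the other 8 members the 3p share overlapped between stages. Let-7d was thus 1 of 9 without overlap, against 49.5% of 103 other goat miRNAs with both arms. Each arm of the 103 had a mean of at least 10 reads, a filter not applied to the 9 members. MiR-98, with 3p reads in 1 library only, was bound to overlap. For the 103 the share of the less abundant arm was taken, which was higher in lambs for 26.2% and lower for 23.3%. The less abundant arm of let-7d is 5p, so its lower 3p share is to be read against the 26.2%. Let-7e had the second highest share, 14.5% ± 1.8 in lambs and 13.7% ± 2.64 in fetuses (SD, n = 3 each). Let-7b followed with 4.71% ± 0.446 in lambs and 4.03% ± 0.861 in fetuses, and let-7i with 1.79% ± 0.586 in lambs and 1.41% ± 0.110 in fetuses. Let-7f, let-7a, let-7c and let-7g had mean shares between 0.0770% and 1.15% in lambs and between 0.101% and 1.18% in fetuses.

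**Figure D4:**
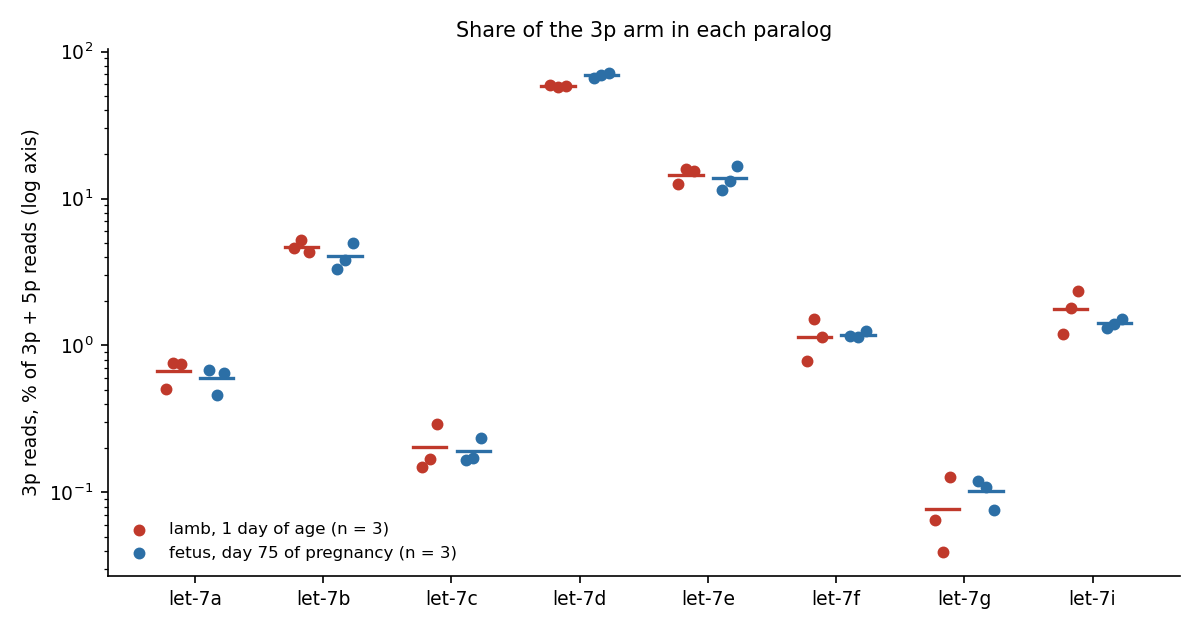
Share of 3p reads in the reads of both arms for each member, in percent on a log axis, with 1 point per library, lambs left of fetuses, and a line at each stage mean (n = 3 each). MiR-98 is left out because its 3p arm has reads in 1 library only. Let-7d is the only member above 50%, and its lamb points (57.1% to 59.6%) lie below its fetal points (65.9% to 71.3%).

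Of the 5 3p names with the substitution at position 22, miR-98-3p was too low to test, and the other 4 did not pass edgeR's threshold with TMM. Let-7a-3p had 65.6, 71.7 and 92.0 CPM in lambs, against 65.3, 45.0 and 55.6 CPM in fetuses. The log2 change was 0.47 ± 0.241 (SE, edgeR adjusted p = 0.166). The 3p arm of let-7f-2 had 23.0, 18.2 and 20.2 CPM in lambs, against 19.9, 13.5 and 11.1 CPM in fetuses. Let-7f-3p had 6.38, 8.66 and 7.73 CPM in lambs, against 9.46, 9.88 and 12.2 CPM in fetuses. The lamb values of let-7f-3p all lay below the fetal ones, with a log2 change of -0.47 (edgeR adjusted p = 0.210). With library totals let-7f-3p was called at -0.85 (edgeR adjusted p = 0.0478). Let-7g-3p had 3.96, 1.24 and 5.99 CPM in lambs, against 4.25, 3.44 and 2.08 CPM in fetuses. Among these names the fitted changes were of both signs. The 3p arm of let-7a-2, with C at position 22, rested on 7, 0 and 9 reads in lambs, against 24, 24 and 20 reads in fetuses, and was not called (log2 change -1.43, edgeR adjusted p = 0.212). Let-7b-3p, also without the substitution, had 318, 288 and 335 CPM in lambs, against 154, 204 and 269 CPM in fetuses (log2 change 0.59, edgeR adjusted p = 0.0951). Lambs lay above fetuses for let-7b-3p without overlap, whereas let-7i-3p and let-7c-3p overlapped. Let-7i-3p had 106, 58.3 and 123.2 CPM in lambs, against 90.7, 85.7 and 85.2 CPM in fetuses (log2 change 0.14, edgeR adjusted p = 0.724). Let-7c-3p had 1.66, 1.41 and 3.24 CPM in lambs, against 2.06, 2.29 and 2.70 CPM in fetuses (log2 change -0.15, edgeR adjusted p = 0.812).

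The 4 largest fitted increases of the family in lambs were all of longer forms of the 5p sequences. Each contains a goat 5p sequence whole, and the added bases are in capitals. The last was listed as mouse let-7j and is not among the 26 names, but it contains let-7i-5p.
let-7a-5p (L+1): Ctgaggtagtaggttgtatagtt
let-7b-5p (L+2): AAtgaggtagtaggttgtgtggtt
let-7a-5p (R+2): tgaggtagtaggttgtatagttTT
let-7f-5p (R+1): tgaggtagtagattgtatagttT
let-7c-5p (R+2): tgaggtagtaggttgtatggttAT
let-7i-5p plus 2 bases, listed as let-7j: tgaggtagtagtttgtgctgttAT

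Bases added at the 3′ end leave the seed as it is, whereas bases added at the 5′ end shift it. Bases 2 to 8 are TGAGGTA in the L+1 form of let-7a and ATGAGGT in the L+2 form of let-7b. Besides let-7d-5p, the names called higher in lambs were the L+2 form of let-7b, the L+1 and R+2 forms of let-7a and the R+1 form of let-7f. The L+2 form of let-7b had 14.7, 10.6 and 16.1 CPM in lambs, against 5.60, 4.85 and 5.71 CPM in fetuses. The lambs did not overlap with the fetuses, and the log2 change was 1.35 ± 0.290 (SE, edgeR adjusted p = 0.0106), and 0.96 with library totals (adjusted p = 0.0244). Without fetus replicate 2 it was 1.28 and not called (edgeR adjusted p = 0.0554). The L+1 form of let-7a had 14.3, 11.1 and 17.5 CPM in lambs, against 6.37, 6.70 and 6.24 CPM in fetuses. Its log2 change was 1.15 ± 0.284 (SE, edgeR adjusted p = 0.0174), and with library totals it was 0.75 and did not pass (adjusted p = 0.0544). It was also not called without any 1 of the fetal libraries (edgeR adjusted p from 0.0507 to 0.0696).

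The R+2 form of let-7a had 51.8, 28.4 and 40.8 CPM in lambs, against 23.4, 19.0 and 18.0 CPM in fetuses, again without overlap. Its log2 change of 1.00 ± 0.288 (SE, edgeR adjusted p = 0.0301) was not called without lamb replicate 1 or any 1 of the fetal libraries (adjusted p from 0.0520 to 0.106). The R+1 form of let-7f, the most abundant longer form, had 211, 77.4 and 116 CPM in lambs, against 70.0, 55.7 and 46.3 CPM in fetuses. Its log2 change of 1.24 ± 0.397 (SE, edgeR adjusted p = 0.0438) was called in 1 of 6 fits without a library, that without lamb replicate 2, and was 0.76 without lamb replicate 1. With library totals these 2 forms stood at 0.60 and 0.83 and did not pass (edgeR adjusted p = 0.103 and 0.112).

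As a share of itself and the unextended sequence, a longer form does not depend on scaling. The R+1 form of let-7f held 5.65%, 4.46% and 4.78% in lambs, against 2.78%, 2.74% and 2.52% in fetuses. The longer form of let-7i held 0.554%, 0.735% and 0.485% in lambs, against 0.349%, 0.267% and 0.277% in fetuses. The R+2 form of let-7a held 0.397%, 0.303% and 0.330% in lambs, against 0.241%, 0.188% and 0.204% in fetuses. In each of these 3 the stages did not overlap, and the ratio of the means, lamb over fetus, lay between 1.63 and 1.99.

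At the 5′ end, the L+2 form of let-7b held 0.224%, 0.202% and 0.217% in lambs, against 0.125%, 0.0937% and 0.111% in fetuses. The L+1 form of let-7a held 0.110%, 0.119% and 0.142% in lambs, against 0.0657%, 0.0663% and 0.0707% in fetuses. The ratios of the means were 1.94 and 1.83, also without overlap. The exception was the R+2 form of let-7c, on 13 to 21 reads in lambs and 24 to 44 reads in fetuses, at 0.246% ± 0.170 in lambs and 0.247% ± 0.0396 in fetuses (SD, n = 3 each).

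In all, 5 of 6 longer forms had higher shares in every lamb than in any fetus. Each of the 5 had an exact permutation p = 0.10, the smallest possible (adjusted p = 0.12 over 6 forms), so none passed a threshold of 0.05. Among 115 other pairs of nested sequences in the table, 27.0% did not overlap between stages and 15.7% were higher in lambs. These 6 forms share parent sequences and libraries and are not independent. The shares at the 5′ end were chosen after their values were seen, and the let-7i form lies outside the family's names. Of the planned 3′ forms, those of let-7a and let-7f did not overlap between stages and that of let-7c did. The higher forms of let-7a, let-7b and let-7f had already been called in CPM. The count is therefore a description and no test against the other pairs.

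**Figure D5:**
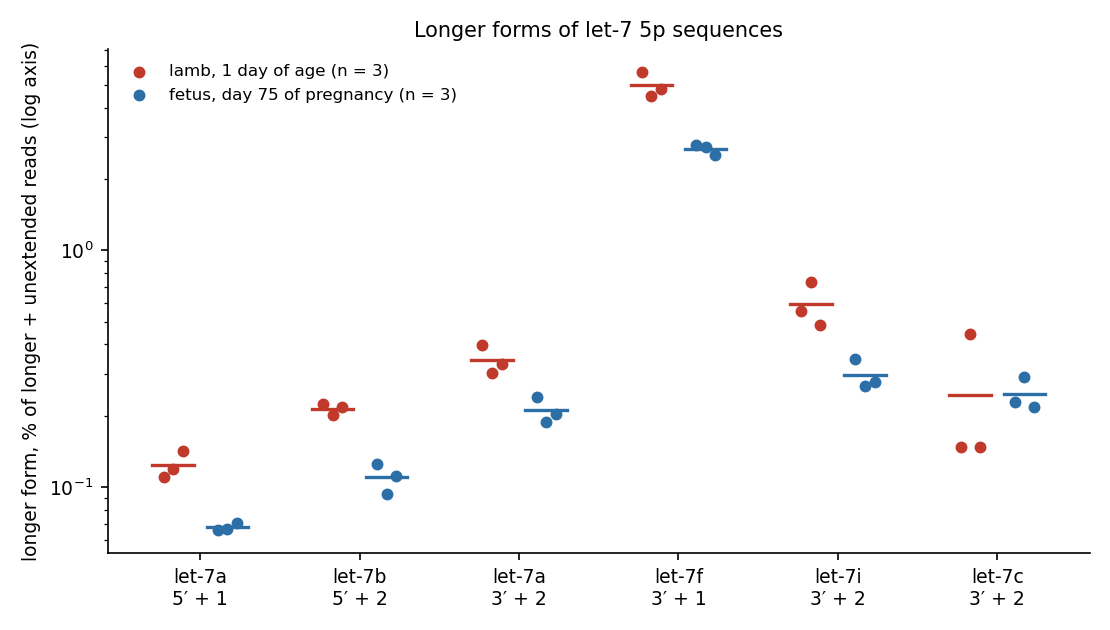
Reads of each longer form as a percent of the longer and the unextended form together, on a log axis, with 1 point per library, lambs left of fetuses, and a line at each stage mean (n = 3 each). Labels give the parent miRNA, the extended end and the number of added bases. In all but let-7c the lowest lamb point lies above the highest fetal point, as for let-7f with 4.46% in lambs against 2.78% in fetuses.

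Across the 6 libraries, the 5 names outside the family whose log2 level went most closely with the summed 5p level were miR-3955-3p (r = 0.963), miR-181a (0.940), the 5p arm of miR-3958 (0.892), miR-1388-5p (0.868) and miR-27a-5p (0.850). These Pearson correlations are a description over 6 libraries of 2 stages, taken as the highest of 690 names, and share the scaling factors. Of the 5, miR-181a was abundant, at 7910, 6361 and 7893 CPM in lambs, against 6779, 6945 and 6726 CPM in fetuses. The other 4 stayed under 12 CPM in every library.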

How the data were processed

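Small RNA libraries were made with a TruSeq Small RNA kit and gel size selection and sequenced on an Illumina HiSeq instrument, per the labels' protocols. The authors deposited estimated counts per name and library, which are not all whole. They also deposited a normalised signal, which is those counts times 1 factor per library. Per the file headers, their log2 ratios (fetus over lamb) and t-test p-values are in the same deposited table. The only build in the submitters' processing notes is mm9, and no coordinates were used. The sources used here do not give the aligner, the registry release or the way reads were shared between names. Of the 1120 names, 1119 have reads in the table used.

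Counts were rounded and tested with edgeR 4.0.16 (R 4.3.3; quasi-likelihood, TMM, names with a mean of at least 10 reads, Benjamini-Hochberg over 714 names, threshold 0.05, stage as the only term). The plan took limma for normalised values and edgeR for whole-number counts. The deposited counts were not all whole and so did not fully meet the condition for edgeR. It was still used as the main fit, with TMM on rounded counts, and limma became an alternative. The SE of a log2 change was taken from the F statistic. Depth was 6096009 to 13756954 reads per library. Shares used two-sided exact permutation tests over 20 assignments. Alternatives were limma 3.58.1, DESeq2 1.42.0, other scalings and filters, a replicate block and each library left out. The edgeR step was tested on simulated data with 200 changed names, split equally into 2-fold and 4-fold changes. It recovered 20 of the 2-fold and 74 of the 4-fold changes, with 4 false calls. A name that was not called may therefore still differ. Shares were computed with scipy 1.17.1 and pandas 2.3.3 under Python 3.11.15. Members and lists were chosen with earlier results of these data known. The shares of each member in the family and of longer forms at the 5′ end were chosen after their values were seen. Named were each member's most abundant 5p and 3p name, every called name, all 3p names with a substitution and the 5 most similar patterns. Tables of class sizes and lengths were not used.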

Additional observations from a re-analysis of the deposited data

How the results depend on the processing

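The count of called members, 7 of 24, was 6 with library totals, 5 with no filter on low values, 6 with limma at each of 3 pseudocounts, and 10 with a minimum mean of 100 reads or with DESeq2. It was 11 with the authors' scaling. With the same replicate numbers as a block (replicate block) 1 member was called, and leaving out 1 library at a time gave 0 to 10. No member was called by edgeR without fetus replicate 2, where 5 had an unadjusted p under 0.05 and limma called 1. Without lamb replicate 1, fetus replicate 1 or fetus replicate 3 the count was 3 each, and without lamb replicate 2 it was 10. Over all names, 305 were called, 222 with the replicate block, and 203 to 341 with 1 library left out, the lowest without fetus replicate 2. The correlations of same-numbered libraries' deviations were 0.153, 0.365 and -0.376, so the numbers were not taken as pairs. With same-numbered pairs, a share without overlap has an exact sign-flip p of 0.25 at best.

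The 7 called names had 103 alternative fits, of which 66 kept the call, 36 kept only the direction and 1 reversed. Let-7e-5p stayed between -1.39 and -0.81 (edgeR, limma and DESeq2 adjusted p from 0.00293 to 0.0679), let-7e-3p between -1.28 and -0.71 (0.00334 to 0.0907), and the L+2 form of let-7b between 0.62 and 1.52 (5.43e-05 to 0.0554).

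With library totals, log2 changes turned to -0.01 for let-7d-5p, -0.02 for let-7b-5p, -0.12 for let-7a-5p, -0.13 for let-7f-5p, -0.27 for let-7i-3p and -0.21 for let-7g-3p, and the summed 5p level to -0.18, as that scaling lowers all names by construction. With the authors' scaling let-7i-5p turned to 0.06 and let-7c-3p to 0.02. Let-7i-5p was 0.03 with a minimum mean of 100 and 0.04 with DESeq2, and let-7c-3p 0.02 with DESeq2. With 1 library left out, 6 uncalled names turned sign, with ranges of -0.06 to 0.50 for let-7f-5p, -0.08 to 0.39 for let-7i-3p, -0.33 to 0.81 for miR-98-5p, -0.31 to 0.60 for let-7g-3p, -0.57 to 0.18 for let-7i-5p and -0.60 to 0.06 for let-7c-3p. The summed 5p level was 0.05 to 0.40 with 1 library left out.

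The number of members with a 3p share that did not overlap was 1, and 1 to 3 with 1 library left out (3 without lamb replicate 1, 2 without lamb replicate 3 or fetus replicate 3). With 1 library left out, differences in 3p share ranged from -0.0336 to 0.0390 percentage points for let-7c, -0.310 to 2.28 for let-7e and -0.224 to 0.149 for let-7f, and that of the R+2 form of let-7c from -0.0989 to 0.0484. The cause of these changes was not tested. The authors' scaling and limma with a pseudocount of 1 were added after seeing the data.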

Other observations

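Names near the family but outside its 26 were few. A predicted miRNA shared the let-7 seed and had 5 and 7 reads in lamb replicates 1 and 3 and a listed 0 in the other libraries. A second sequence listed as mouse let-7j differed from let-7i-5p by G8T, inside the seed, and within the 26 platypus-named let-7e-5p differed from goat let-7f-5p by T16A rather than matching goat let-7e. Each had at most 11 reads in a library.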
